A study of Mus musculus with 7 samples.

Results

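The genes described here are 9 genes that mark microglia, the resident macrophages of the brain, measured in libraries that were each made from the contents of 1 neuron. They are C1qa, C1qb, C1qc, Tyrobp, Aif1, Cx3cr1, P2ry12, Csf1r and Ctss. They were chosen by symbol, all 9 were found in each of the 7 deposited tables, and their transcripts were summed per symbol, out of 21414 genes named in every table. The 7 neurons came from untreated VIP-eGFP mice, whose eGFP reporter is driven by the gene for vasoactive intestinal polypeptide (VIP). They lay in the stratum oriens or alveus of hippocampal area CA1 and were patch-clamped in acute slices before their contents were drawn up for sequencing. The labels call them long-range cells. All 7 carry the same strain and no treatment, so they form 1 group with no control group, and the labels tie no cell to an animal. Of 23 cells for which the labels report sequencing libraries, 7 are analysed here.

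Microglia touch neurons and synapses with fine processes and are told apart from neurons by a small set of genes. C1qa, C1qb and C1qc encode the chains of C1q, the recognition molecule that starts the classical complement cascade and that can tag synapses for removal. Tyrobp encodes the membrane adaptor through which Trem2 and other receptors signal. Cx3cr1, P2ry12 and Csf1r encode surface receptors for the neuronal chemokine Cx3cl1, for ADP, and for the survival factors Csf1 and Il34. Aif1 encodes a calcium-binding protein of the actin cytoskeleton that is widely used to stain microglia, and Ctss encodes the lysosomal protease cathepsin S.

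The libraries held 1052327 to 3398521 estimated counts, and levels are given in TPM (transcripts per 1000000, a unit corrected for transcript length). The tables of cells 1 to 6 list RefSeq transcripts and that of cell 7 lists Ensembl transcripts, so each table has its own TPM scale, which limits any comparison of levels between cells. The 20380 protein-coding genes named in all tables made up 12.7% of the cell 6 library by TPM, 70.4% of the cell 7 library and 25.2% to 57.5% of the others. Of 5 interneuron genes examined, all 5 were detected in cells 1 to 5, 4 in cell 6 and 3 in cell 7. Vip and the GABA-synthesis gene Gad1 were above 1 TPM, the level used here for a detected gene, in 7 of 7 cells. Slc32a1, the vesicular GABA transporter gene, was at 0 in cells 6 and 7, and Gad2, a second GABA-synthesis gene, was at 0.218 TPM in cell 7. All 6 pan-neuronal genes examined were also detected in every cell.

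Every library held at least 1 of the 9 genes, but the sets were very unequal. Cell 3 had 9 of the 9 genes above 1 TPM, where 24.8% of all shared protein-coding genes passed that level. Cell 2 had 7 genes (38.7% of all genes passed), cell 1 had 6 (14.9%), cell 5 had 6 (32.7%), cell 7 had 5 (14.6%) and cell 4 had 4 (21.3%). Cell 6 had 1 gene, Ctss, where 17.3% of all genes passed. Over all genes and cells, 38 of 63 gene and cell pairs were above 1 TPM, against 23.5% of the pairs formed by all shared protein-coding genes. The median microglial gene was detected in 5 cells and reached 383 TPM in its highest cell. The median over all shared protein-coding genes was 1 cell and 2.95 TPM. Of the 9 genes, 6 were detected in 4 or more cells, as were 19.0% of all genes. None of the 9 was detected in all 7, where 2.96% of all genes were.

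**Figure D1:**
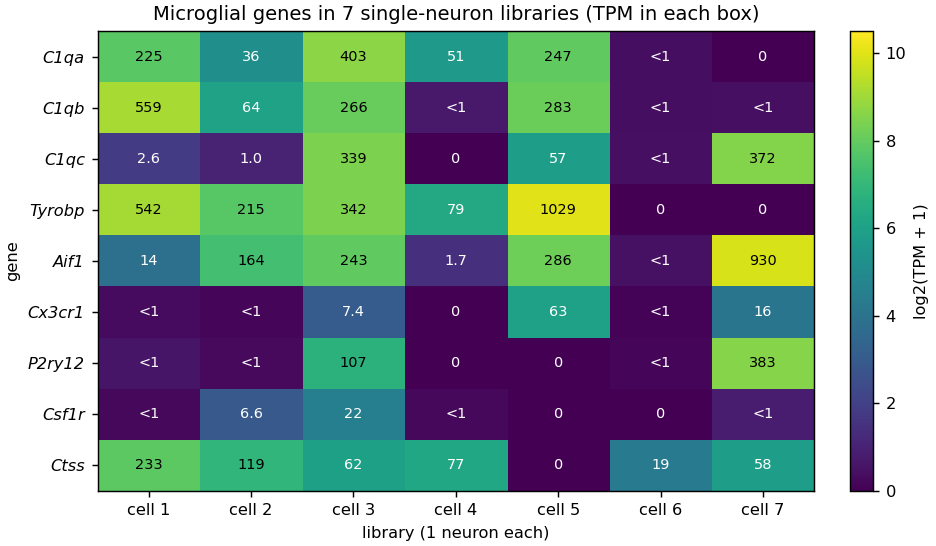
Level of each microglial gene (rows) in each of the 7 libraries (columns). Colour is log2(TPM + 1) and the figure in each box is TPM; cell 3 is filled in every row, cell 6 in the Ctss row, and Tyrobp reaches 1029 TPM in cell 5.

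The 9 genes together made up 0.158%, 0.0607%, 0.179%, 0.0209%, 0.197%, 0.00203% and 0.176% of TPM across cells 1 to 7. By estimated counts, cell 3 led with 4444 counts, or 0.313% of its library (95% exact binomial interval 0.304% to 0.322%, which covers counting error only). Cell 6 held 66 counts, or 0.00594% (0.00460% to 0.00756%). Cells 2, 4 and 6 lay below cells 1, 3, 5 and 7 on both measures. Set against the shared protein-coding genes alone, the shares were 0.443%, 0.106%, 0.710%, 0.0665%, 0.598%, 0.0160% and 0.250% across cells 1 to 7, so cell 3 passed cell 5 on that scale and cell 7 stood well below cell 1. The mean log2(TPM + 1) of the 9 genes, called the microglial level below, averaged 3.99 ± 1.99 (SD, n = 7 cells), with 6.87 in cell 3 and 0.70 in cell 6.

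The 3 chains of C1q are made from neighbouring genes on the minus strand of chromosome 4 (mm10, GENCODE M21): C1qb at 136880129 to 136886187, C1qc at 136889804 to 136893065 and C1qa at 136895917 to 136898803. Their transcripts did not travel as a trio. Across cells 1 to 7, in that order, C1qa read 225, 36.3, 403, 50.8, 247, 0.304 and 0 TPM. It was therefore present in cells 1 to 5, at 76 to 1005 counts, and at 1 count and 0 counts in cells 6 and 7, where the TPM of 3 counts is 0.912 and 1.02. The C1qb levels of cells 1 to 7 were 559, 64.4, 266, 0.658, 283, 0.311 and 0.338 TPM. Cell 4 thus held 79 counts of C1qa but 1 count of C1qb. For C1qc the 7 cells gave 2.56, 1.04, 339, 0, 57.2, 0.330 and 372 TPM. It was high in cells 3, 5 and 7 and stood on 4, 2, 0 and 1 counts in cells 1, 2, 4 and 6.

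Within the C1q total, the balance of the chains turned over between cells. C1qc made up 99.9% of C1q TPM in cell 7, where C1qa was at 0 counts and C1qb at 1 count against 1256 counts of C1qc. In cell 1 C1qb made up 71.1% and C1qa 28.6%, and C1qc made up 0.326%. In cell 4 C1qa made up 98.7%. Among cells with at least 3 counts of each chain, cell 3 came nearest to an even split, with 40.0% C1qa, 26.3% C1qb and 33.7% C1qc. Cell 5 had 42.0%, 48.2% and 9.74%. The shares of cell 6 were 32.2%, 32.9% and 34.9%, but on 1 count of each chain. All 3 chains were thus well covered by reads in cells 3 and 5 alone. The C1qc counts of cells 3 and 5 lay mostly on the curated RefSeq transcript (92.3% in cell 3), whereas the 4 counts of cell 1 lay on a predicted model.

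Windows of 250 bases before to 50 after the annotated start were available from RefSeq (GRCm38.p6) for 6 of the 9 genes, namely C1qb, C1qc, Aif1, Cx3cr1, P2ry12 and Ctss. Those of C1qb, C1qc and P2ry12 are shown because C1qb and C1qc lie side by side yet differed in cells 1, 2 and 7 while both were high in cells 3 and 5, and because P2ry12 was among the 3 members whose levels were most like those of C1qc. They run 5′ to 3′ on the minus strand, from chr4:136886151-136886450, chr4:136892865-136893164 and chr3:59262936-59263235. Capitals mark AGGAAGT or its reverse complement ACTTCCT, a sequence of the kind bound by ETS-family factors such as PU.1, the macrophage factor encoded by Spi1.
C1qb: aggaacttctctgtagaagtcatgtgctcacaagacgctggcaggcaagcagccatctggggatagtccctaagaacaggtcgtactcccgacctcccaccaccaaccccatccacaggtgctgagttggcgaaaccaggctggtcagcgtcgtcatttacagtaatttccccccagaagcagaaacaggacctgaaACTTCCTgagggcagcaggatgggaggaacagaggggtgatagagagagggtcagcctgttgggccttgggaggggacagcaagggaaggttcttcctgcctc
C1qc: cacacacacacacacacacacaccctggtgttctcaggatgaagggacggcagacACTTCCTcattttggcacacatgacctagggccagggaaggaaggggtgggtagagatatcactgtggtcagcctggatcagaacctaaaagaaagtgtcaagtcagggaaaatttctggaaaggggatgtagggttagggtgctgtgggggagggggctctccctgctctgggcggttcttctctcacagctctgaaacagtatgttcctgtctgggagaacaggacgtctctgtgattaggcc
P2ry12: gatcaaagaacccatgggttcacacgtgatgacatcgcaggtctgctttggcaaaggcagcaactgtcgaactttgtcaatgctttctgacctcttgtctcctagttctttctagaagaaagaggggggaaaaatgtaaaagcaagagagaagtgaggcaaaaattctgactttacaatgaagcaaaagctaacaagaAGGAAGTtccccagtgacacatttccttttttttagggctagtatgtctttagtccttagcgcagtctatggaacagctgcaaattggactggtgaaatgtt
The match begins 53 bases before the RefSeq start in C1qb, 195 before it in C1qc and 52 before it in P2ry12. These starts differ from those of the GENCODE spans given for the same genes, and the distances would change with the start used. The window of Ctss also held the 7 letters, and those of Aif1 and Cx3cr1 did not. Counting both strands, 4 of the 6 windows held AGGAAGT, as did 9.35% of all 32851 RefSeq windows of the same length. The longer GAGGAAGT, which contains it, was found in C1qc and Ctss and in 3.20% of all windows. The letters were chosen with these windows in view, and a match describes the sequence and not the binding of a factor.

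Tyrobp, on the plus strand of chromosome 7 (30413760 to 30417585), was detected in the same 5 cells as C1qa. Taken from cell 1 to cell 7, its levels were 542, 215, 342, 79.1, 1029, 0 and 0 TPM. Within cells 1 to 5 the order differed, since C1qa was highest in cell 3 (403 TPM) and Tyrobp in cell 5. The groups of cells with and without it did not touch, since cells 1 to 5 held 57 to 1125 counts and 3 counts would have given 1.94 TPM in cell 6 and 2.06 in cell 7. Tyrobp was the leading microglial gene of cells 2, 4 and 5, with 52.3% of the microglial TPM in cell 5. Across the 7 cells, its log2 level had a Pearson r of 0.97 with C1qa and 0.87 with C1qb, given as a description of cells that share a group and separately normalised tables.

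The receptors that signal through Tyrobp were present in some of the same libraries. Trem2, a lipid-sensing receptor, read 218, 150 and 89.5 TPM in cells 1, 3 and 5 and had no count elsewhere. Siglech, a sialic acid-binding lectin, was at 24.5, 72.7 and 53.0 TPM in cells 1, 3 and 5 and below 1 TPM elsewhere. Each of the 3 cells with Trem2 and Siglech thus had Tyrobp, while cells 2 and 4 had Tyrobp with neither receptor above 1 TPM. Of the 9 partner genes examined, 3 passed 1 TPM in any cell, as did 55.1% of all shared protein-coding genes, and the third was the phospholipase gene Plcg2 at 26.2 TPM in cell 3. Syk, the kinase downstream of the adaptor, reached 0.117 TPM at most.

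The surface receptors were detected in fewer cells than the C1q chains or Tyrobp. Cx3cr1 levels in cells 1 to 7 were 0.241, 0.128, 7.37, 0, 63.2, 0.0826 and 16.0 TPM. Cells 3, 5 and 7 therefore carried it, at 71 to 554 counts, and the other cells had at most 2 counts. For P2ry12 the same 7 cells gave 0.508, 0.205, 107, 0, 0, 0.132 and 383 TPM. This receptor of resting microglia was thus above 1 TPM in cells 3 and 7 of the 7, with 615 and 2501 counts. The P2ry12 counts of cell 3 all lay on a predicted transcript model. Csf1r read 0.155, 6.61, 22.0, 0.169, 0, 0 and 0.775 TPM across cells 1 to 7. It was the gene with the lowest mean level of the 9, and cell 3 was its highest cell. Its counts in cells 2 and 3 also lay on predicted models. Cell 3 was the one library with all 3 receptors above 1 TPM. In cell 7, however, Csf1r held 9 counts, where 3 counts would have given 0.231 TPM. Rescaled over the shared protein-coding genes, its level in cell 7 was 1.10 TPM.

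Position bears on how some of these counts can be read, because the kit keeps no strand. P2ry12 (chromosome 3, 59216272 to 59262871, minus strand) lies inside the span of Med12l, a gene of the opposite strand. Med12l was highest in cell 2 (14.8 TPM), where P2ry12 was at 0.205 TPM, and read 2.90 TPM in cell 3 and 0 in cell 7. The annotated span of Cx3cr1 (chromosome 9, 119901616 to 120069879, minus strand) overlaps 9 other genes, and reads of overlapping exons could not be told apart by strand. C1qa, C1qb, C1qc, Tyrobp and Aif1 overlap no other annotated gene.

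Genes of signalling between neurons and microglia, ligands of these receptors among them, were spread differently. Cx3cl1, the ligand of Cx3cr1, read 56.8, 96.6, 0.125, 71.9, 3.68, 11.7 and 272 TPM across cells 1 to 7. It was detected in 6 of 7 cells, and the exception was cell 3, the library with the highest microglial level. Of the Csf1r ligands, Csf1 was at 1.90 TPM in cell 1 and 0 elsewhere, while Il34 was at 43.3 TPM in cell 2 and 15.4 in cell 5. Cd200, a neuronal surface protein that restrains microglia, ranged between 3.65 and 101 TPM over cells 1 to 5 and had no count in cells 6 and 7. Cd47, a further restraining signal, read 92.5 and 43.0 TPM in cells 2 and 5 and under 1 TPM elsewhere. Of 8 such genes, 7 passed 1 TPM in at least 1 cell (55.1% of all genes did) and 2 in 4 or more (19.0%).

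Aif1 (chromosome 17, 35170991 to 35176068, minus strand) passed 1 TPM in 6 cells, as did Ctss, but in cell 4 it did so on 2 counts. Its levels in cells 1 to 7 were 13.7, 164, 243, 1.66, 286, 0.390 and 930 TPM. Cell 7 was highest with 1793 counts, spread over several listed transcripts with 83.6% on one of them, and cells 4 and 6 had 2 counts and 1 count. Aif1 was the leading microglial gene of cell 7, with 52.8% of the microglial TPM there.

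Ctss (chromosome 3, 95526786 to 95556403, plus strand) went its own way. From cell 1 to cell 7 it read 233, 119, 62.3, 76.9, 0, 18.8 and 57.7 TPM. Cell 5 was the one library without it, although that cell had the highest Tyrobp level, and 3 counts would have given 0.981 TPM there. In cell 6 its 60 counts, all on a predicted transcript model, made up 92.4% of the microglial TPM. With Cx3cr1 its r across cells was -0.71, the lowest of the 36 pairs of members.

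Some other genes of lysosomal proteases and their inhibitors were detected in every cell. Of 14 genes of cathepsins, cystatins and related proteins such as Cd74, 10 passed 1 TPM in at least 1 cell (55.1% of all genes did). Of the 14, 3 passed in all 7 cells, as did 2.96% of all genes. Those 3 were Cst3, which encodes the protease inhibitor cystatin C, and the cathepsin genes Ctsd and Ctsb. Cst3 ran from 69.9 TPM in cell 6 to 14148 in cell 1, and Ctsd from 5.74 TPM in cell 6 to 947 in cell 1. Ctsz, a cathepsin gene abundant in microglia, read 801 and 111 TPM in cells 1 and 5 and under 1 TPM in the rest. Cd74, the invariant chain of antigen presentation that cathepsin S processes, was at 0 in 7 of 7 cells.

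A few pairs of members had like levels across cells, and they are named here after their values were seen. C1qa, C1qb and Tyrobp had like levels over cells 1 to 7, with Pearson r of 0.85 to 0.97 between them. C1qc had r of 0.82 with Aif1, 0.83 with Cx3cr1 and 0.85 with P2ry12, an order that changed on rescaled TPM (0.83, 0.86 and 0.80). Those 3 genes were less like each other, with r of 0.45 for Cx3cr1 and P2ry12, 0.63 for Aif1 and P2ry12 and 0.74 for Aif1 and Cx3cr1. Ctss and Csf1r had no r above 0.8 with any member over the 7 cells. The 3 pairs among C1qa, C1qb and Tyrobp and the 3 pairs of C1qc with Aif1, Cx3cr1 and P2ry12 were the 6 of 36 with r above 0.8, the median pair had r = 0.23, and 10 pairs were negative. C1qc and C1qa had r = 0.08 over 7 cells, which became 0.67 without cell 7, -0.22 without cell 3 and -0.20 without cell 6. C1qc and C1qb had r = 0.21, or 0.66 without cell 7. All of these describe 7 points from tables that were normalised separately, and cell 7 is also the one on Ensembl transcripts.

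**Figure D2:**
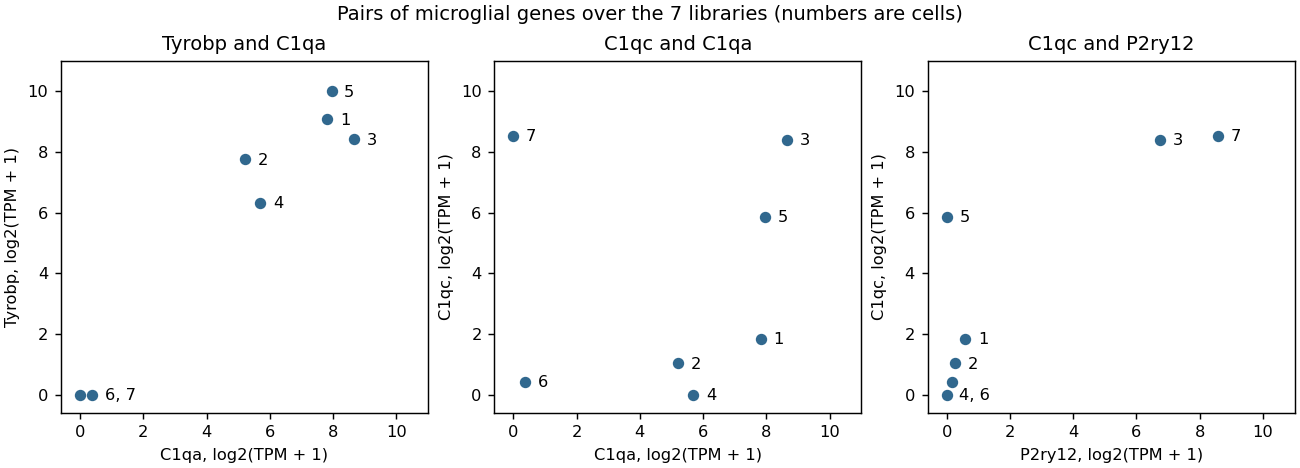
Levels of 3 pairs of microglial genes, each point 1 library and both axes log2(TPM + 1), with the cell number beside each point. Tyrobp and C1qa are high together in cells 1 to 5, C1qc is high without C1qa in cell 7, and C1qc and P2ry12 are both high in cells 3 and 7.

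The counts behind these levels were close to all or nothing. Of the 63 gene and cell pairs, 34 held 50 or more estimated counts, 10 held 0 and 16 lay above 0 but under 3 counts. The remaining 3 pairs held 4, 9 and 18 counts. Over all shared protein-coding genes, 16.2% of pairs held 50 or more counts, 67.5% held 0, 5.57% lay above 0 and under 3, and 10.7% lay between 3 and 50. Traces under 3 counts were most frequent in cell 6, where 6 of the 9 genes stood at about 1 count, against 5.01% of all protein-coding genes above 0 and under 3 counts there. Those 6 were C1qa, C1qb, C1qc, Aif1, Cx3cr1 and P2ry12, and Tyrobp and Csf1r had no count in that cell. In cell 3 no member was under 3 counts. The libraries carry no molecular identifiers, and what produced the traces was not tested.

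A wider list of 28 microglial genes was read beside the 9. Of these, 19 passed 1 TPM in at least 1 cell, as did 55.1% of all shared protein-coding genes. In 4 or more cells 1 of them passed, where 19.0% of all genes did. That gene was Fcer1g, an adaptor of Fc receptors, with 584, 386 and 46.3 TPM in cells 3, 7 and 5. Its 1.13 and 1.04 TPM in cells 4 and 1 were 1 count each, under the TPM of 3 counts there (3.40 and 3.11). Cell 3 held 13 of the 28, where 24.8% of all genes passed, cell 5 held 8 (32.7%), cell 1 held 5 (14.9%) and cell 7 held 4 (14.6%). Cell 4 held 3 (21.3%), cell 2 held 2 (38.7%) and cell 6 held 0 (17.3%). The counts of cells 1, 5 and 7 were thus near the share over all genes, and those of cells 2, 4 and 6 were below it. Laptm5, a lysosomal membrane protein gene of immune cells, read 218, 184 and 69.5 TPM in cells 3, 7 and 5.

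Cell 3 also held genes of the list that no other cell had above 1 TPM. They were Spi1 at 109 TPM, Fcrls at 120, Gpr34 at 108, Cd68 at 117, Irf8 at 22.5 and Olfml3 at 13.4 TPM, of which Spi1 and Irf8 encode transcription factors of the macrophage lineage. Without cell 3, 13 of the 28 genes remained above 1 TPM in at least 1 cell. Cell 5 alone had Cd53 (53.4 TPM) and Unc93b1 (65.5 TPM), and cell 2 alone had Fcgr3 (47.8 TPM). Cell 1 alone had Sall1 (4.54 TPM), and cell 4 alone had Runx1 (1.53 TPM). Tmem119, a defining gene of homeostatic microglia, was above 1 TPM in no cell and reached 0.828 TPM in cell 1. Ptprc, the pan-leukocyte gene that encodes CD45, reached 0.650 TPM in cell 7.

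**Figure D3:**
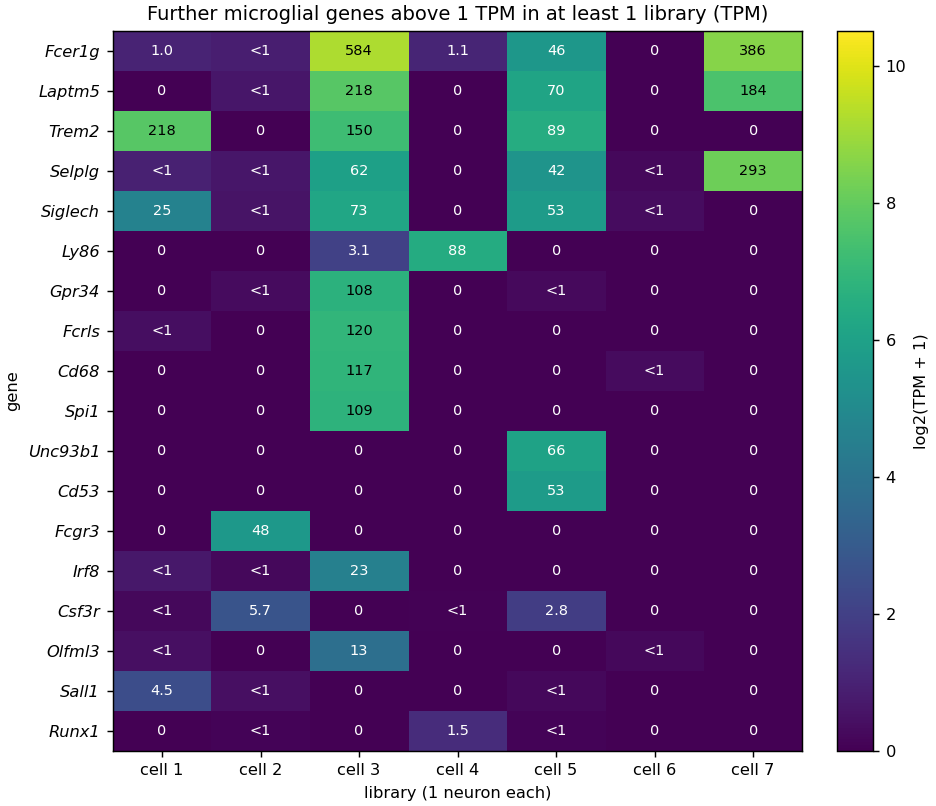
Further microglial genes above 1 TPM in at least 1 library (18 rows, from the highest mean level down) in the 7 libraries (columns). Colour is log2(TPM + 1) and figures are TPM; 12 of the genes shown pass 1 TPM in cell 3 and none in cell 6.

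Genes of microglial activation were examined as a list of 12, of which 8 passed 1 TPM in any cell (55.1% of all genes did) and none in 4 or more (19.0%). In cell 3 the inflammatory genes Ccl2 (70.6 TPM), Ccl3 (53.7 TPM), Tnf (43.8 TPM) and Cd83 (69.1 TPM) were above 1 TPM, and in no other cell. Cd9, a tetraspanin gene that other glia also express, was at 249 TPM in cell 1 and 128 in cell 7. Il1b reached 0.760 TPM at most, and Spp1 and Clec7a were at 0 in every cell.

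The rest of the complement cascade was almost absent. Of 12 further component genes, 3 passed 1 TPM, each in 1 cell, where 55.1% of all genes passed in at least 1. Cfp, which encodes properdin, was at 35.8 TPM in cell 4, Cfb was at 7.56 TPM in cell 5 and C1ra, a protease that C1q activates, at 2.11 TPM in cell 5. C3 and C4b, whose products are laid down on targets downstream of C1q, were at 0 in 7 of 7 cells. Of 16 receptors and inhibitors of the cascade, 11 were above 1 TPM in any cell (55.1% of all genes were) and 5 in 4 or more (19.0%). Calr, a chaperone that also binds C1q, was above 1 TPM in every cell, at 11.7 to 334 TPM. C1qbp was above 1 TPM in 5 cells and reached 181 TPM in cell 2. Cd59a, an inhibitor of the terminal complex, was at 2.39 to 31.9 TPM in 5 cells. C5ar1, a receptor for a complement fragment that attracts phagocytes, was at 211 TPM in cell 7 and 3.22 in cell 2. Of 8 neuronal genes that share the C1q fold, 3 passed 1 TPM in any cell, where 55.1% of all genes did. C1ql3 read 10.3 and 16.0 TPM in cells 1 and 6, Cbln4 20.4 and 2.16 TPM in cells 1 and 2 and Cbln1 1.61 TPM in cell 2.

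Markers of other cell types were read in the same libraries. Of 8 genes of macrophages at the borders of the brain, 2 passed 1 TPM in any cell (55.1% of all genes did). They were Stab1, at up to 4.64 TPM, and Cd163, at 1.31 TPM. The defining genes of these macrophages Mrc1, Lyve1, Pf4, Cbr2, F13a1 and Ms4a7 were at 0 in 7 of 7 cells. The summed level of the list ran from 0 to 4.64 TPM. Of 11 blood leukocyte genes, S100a9 alone passed 1 TPM in any cell (55.1% of all genes did), at 133 TPM in cell 6. Ly6c2, S100a8, Ngp, Plac8, Cd79a and Nkg7 were at 0 throughout, and Lyz2 reached 0.436 TPM. The summed level of that list ran from 0 to 133 TPM. Cell 6, with the lowest microglial level, thus carried the S100a9 signal, and cells with many microglial genes did not.

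Genes of other glia and of red cells were detected beside the microglial genes, and the part of such cells in these results was not tested. By mean log2 level, oligodendrocyte genes were highest in cell 7 (7.46) and lowest in cell 2 (1.68), with 1.85 in cell 3. In cell 7, 6 of 8 passed 1 TPM (14.6% of all genes did), and in cell 2, 4 of 8 (38.7%). Their summed TPM was 20793 for cell 7 and least, 113, for cell 3. Astrocyte genes were highest on the same scale in cell 1 (4.47) and lowest in cell 5 (0.92). In cell 1, 6 of 8 passed 1 TPM (14.9% of all genes did), and in cell 5, 2 of 8 (32.7%). Their sum was highest in cell 7 (2753 TPM, against 1154 in cell 1). Aldoc ran from 27.4 to 2150 TPM, whereas Gfap was at 0 in every cell and Aqp4 reached 0.0608 TPM at most. Haemoglobin and other red cell genes summed to 104 TPM in cell 1 and 10493 in cell 2. Of 8 endothelial and mural genes, 3 passed 1 TPM in any cell (55.1% of all genes did). Rgs5 passed in 4 cells, at up to 27.4 TPM in cell 4, Pecam1 read 83.7 TPM in cell 7 and Vtn 4.08 TPM in cell 4. The endothelial genes Cldn5 and Slco1a4 and the mural genes Pdgfrb and Kcnj8 were at 0 in 7 of 7 cells. The order of the cells by microglial level (3, 5, 1, 7, 2, 4, 6) was therefore not their order by oligodendrocyte level (7, 5, 6, 1, 4, 3, 2) or by red cell level (2, 4, 3, 6, 5, 7, 1). On rescaled TPM each order changed but they still differed: microglial (3, 5, 1, 2, 7, 4, 6), oligodendrocyte (7, 6, 5, 1, 4, 3, 2) and red cell (2, 6, 4, 3, 5, 1, 7). In these libraries, RNA made by the recorded neuron and RNA of other cells drawn into the pipette cannot be told apart.

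**Figure D4:**
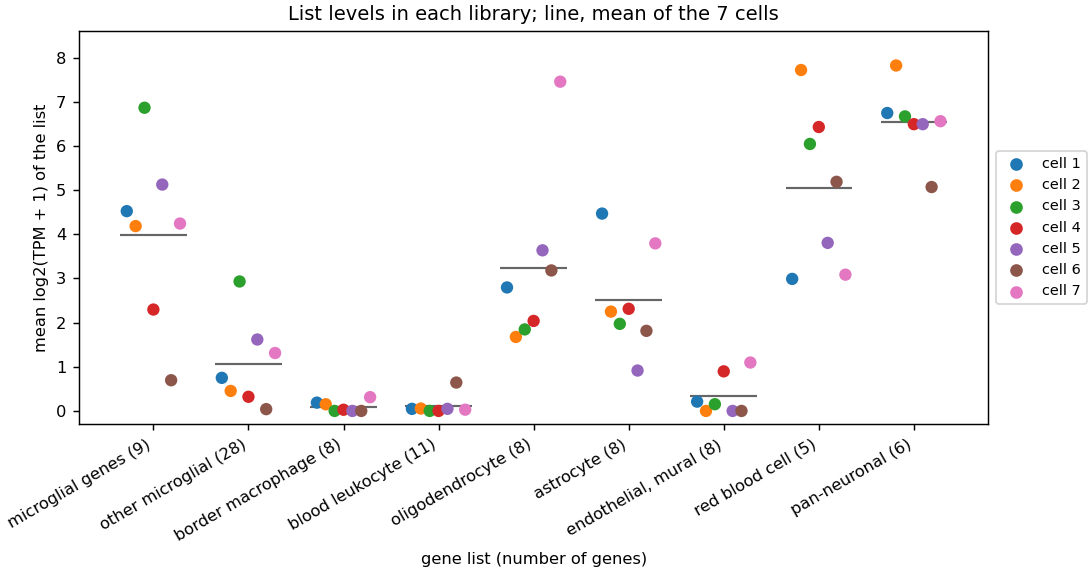
Mean log2(TPM + 1) of 9 gene lists (number of genes in brackets) in each library, 1 coloured point per cell; the line is the mean of the 7 cells. Microglial levels spread from 0.70 in cell 6 to 6.87 in cell 3, border macrophage and blood leukocyte levels lie near 0, and pan-neuronal levels lie between 5.07 and 7.82.

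Genes whose levels were most like those of the members across the 7 cells were looked for among 5828 protein-coding genes above 1 TPM in 3 or more cells. The 5 most like the mean C1q level were Zfp532 (r = 0.95), a zinc finger gene, Dcaf10 (0.94), a ubiquitin ligase adaptor gene, Prrc2a (0.93), Siglech (0.92) and Larp1 (0.92), which encodes an RNA-binding protein. Siglech was at 72.7 TPM in cell 3, whereas Dcaf10 did not exceed 1.34 TPM in any cell. The 5 most like the microglial level were Rdh13 (0.92), Zfp532 (0.91), Bcl2l1 (0.91), which encodes a survival protein, Ctsd (0.90) and Sparc (0.89), a gene of a secreted matrix protein. In all, 9 of the 5828 reached r = 0.9 with the C1q level. The genes named for the C1q level changed with the cells included. Of the 5, 1 remained without cell 1, 2 without cell 2, 0 without cell 3, 3 without cell 4, 1 without cell 5, 1 without cell 6 and 2 without cell 7.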

How the data were processed

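Each neuron's RNA was turned into cDNA (SMART-Seq v4) and a Nextera XT library read from both ends, as the labels' protocols say. The authors deposited, for every transcript, an estimated count, TPM, length and effective length, per the file headers. STAR 2.5.2a, kallisto and mm10 are named in the submitters' processing notes; what each did, and its settings, is not given in the sources used here. Cells 1 to 6 list RefSeq and cell 7 Ensembl transcripts, and TPM sums to 1000000 in each table.

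TPM and estimated counts were summed per gene symbol. Missing or date-like symbols were looked up by accession, which named 122 of 157 such rows per table for cells 1 to 6 and 81 of 81 for cell 7; rows left unnamed held at most 0.0362% of TPM. A gene was called detected above 1 TPM, levels are log2(TPM + 1), and the floor for a 0 is the TPM of 3 counts at the gene's median effective length. Intervals and floors cover counting error only. The labels put all cells in 1 group and name no animal, so it counts as 1 sample and cells were not tested against each other; an SD is the spread between cells. The likeness ranking was tested on simulated data. Rescaled TPM is TPM over the 20380 shared protein-coding genes. Alternatives were other thresholds (0 and 10 TPM, or 3 counts), pseudocounts (0.1 and 10), the highest transcript, rescaled TPM, estimated counts scaled to the library total, no filter on low values, and leaving out each cell. Named genes are the 9 members, up to 3 leading genes of each list, the 5 nearest genes by r, and fixed partner or defining genes. Ctsz, Cd74, Syk, Ptprc, C5ar1, Lyz2, Tnf, Cd83, Fcrls, Gpr34, Irf8, Olfml3, Cd68, Cd53, Unc93b1, Fcgr3, Sall1, Runx1, Aqp4, Il1b, Spp1, Clec7a and Med12l were named after their values were seen. A further gene of the wider microglial list is counted in it but is not reported here by name. The members and lists were chosen with earlier results of these data known. Analyses used Python 3.11.15, pandas 2.3.3, numpy 2.4.6, scipy 1.17.1 and matplotlib 3.10.9.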

Additional observations from a re-analysis of the deposited data

Results flagged for a closer look

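In 8 of 34 gene or list levels looked at, the top cell was separated from the next by a gap that filled most of the spread (log2 scale). About 1 in 20 sets of 7 independent, normally distributed values would meet this criterion. Some of these genes were at 0 in most cells, and a gene with counts in a single cell meets the criterion readily. Whether 8 of 34 exceeds chance therefore cannot be told. None of the 9 microglial genes was picked out. Cell 3 stood above the others for Spi1, at 109 TPM against 0 in the other 6 cells, and for the mean log2 level of the activation list, at 1.96 against 0.80 in the next cell. Cell 1 was high for Tmem119 (0.828 TPM, next 0.189), Csf1 (1.90 TPM, next 0) and the oligodendrocyte precursor list (0.68 on the log2 scale, next 0.20). Cell 2 was high for the list of complement receptors and inhibitors (2.73, next 1.65). Cell 6 was high for the blood leukocyte list (0.64, next 0.05), which rests on S100a9. Cell 7 was high for the oligodendrocyte list (7.46, next 3.64).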

How the results depend on the processing

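No paired analysis was possible because the 7 cells form 1 group. Counting a value as kept when a count stayed within 1.5 times, an r within 0.2 and a level or share within 1 SD between cells, 104 values that answer a comparison were kept and 16 moved. For single genes 107 were kept and 1 moved (Csf1r, mean log2 level 3.69 with a pseudocount of 10). These are wide limits: Csf1r at -0.50, against 1.24, with a pseudocount of 0.1 and 53 gene and cell pairs above 0 TPM, against 38 above 1 TPM, count as kept. The r of C1qa and C1qc, 0.08, turned negative without cells 3, 5 or 6 (-0.22, -0.013 and -0.20) and with a pseudocount of 0.1 (-0.0096). The median share of TPM taken by the 9 genes was 0.158%, 0.250% when rescaled over shared protein-coding genes and 0.109% to 0.167% with each cell left out. Of the 5 genes most like the C1q level, 2 remained with a pseudocount of 0.1, 3 with a pseudocount of 10, 3 when rescaled, 3 with no filter on low values and 0 to 3 with each cell left out. Leaving out each cell gave r of -0.22 to 0.67 for C1qa and C1qc, 0.017 to 0.66 for C1qb and C1qc and 0.81 to 0.99 for C1qa and C1qb. It also gave 29 to 37 gene and cell pairs above 1 TPM and a microglial level of 3.51 to 4.54. The cause was not tested. Depth limits the levels under 3 counts, which cannot be told from 0 here.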
